A study of Mus musculus with 4 samples.

Results

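Cassette exons of 31 to 300 nt whose length was a multiple of 3 were examined in mRNA-SEQ data of the E14.5 mouse cortex, at mid-neurogenesis. A cassette exon is one that is either spliced into the mRNA or skipped as a whole, and a length divisible by 3 leaves the reading frame of the downstream codons unchanged. Among 16034 cassette events quantified by the authors, 6423 (40.1%) fulfilled this rule, which used the length only and no measured value. They described 6046 exons of 4288 genes, since an exon can appear in several events with different neighbours. The shortest was 33 nt and the longest 300 nt. The data came from 2 control and 2 *Qk* cKO cortices. Control embryos were *Qk* fl/fl littermates, labelled wild type, that carried the floxed allele without Cre. *Qk* cKO embryos carried the same floxed alleles and Nestin-Cre, in which the Nestin promoter drives Cre recombinase in neural progenitors and their progeny, so that cells of other lineages in the dissected cortex keep an intact *Qk*. The strain and sex of the embryos were not given in the sources used here.

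*Qk* encodes Qki, a STAR-family RNA binding protein that recognizes ACUAAC-like sequences in RNA. Bound in an intron or exon, a splicing regulator of this kind can make the spliceosome use or pass over a nearby exon, and its effect often depends on where it sits relative to that exon. An exon that keeps the frame adds or removes a stretch of amino acids within an otherwise identical protein, whereas an exon that shifts the frame usually creates an early stop codon. In the developing cortex, such in-frame exons are frequent in genes for the cytoskeleton, cell adhesion and the synapse.

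The sequences of 10 called exons are shown first, because their inclusion is described in detail below, and the coordinates given are those of the exon. Each sequence is the mature transcript, 5′ to 3′, from GENCODE M21 (GRCm38, the same build as mm10). Capitals mark the cassette exon, and the 20 lower-case bases on each side belong to the neighbouring exons of that transcript. The following 6 coding exons were included less in *Qk* cKO.
*Etl4*, chr2:20801542-20801661: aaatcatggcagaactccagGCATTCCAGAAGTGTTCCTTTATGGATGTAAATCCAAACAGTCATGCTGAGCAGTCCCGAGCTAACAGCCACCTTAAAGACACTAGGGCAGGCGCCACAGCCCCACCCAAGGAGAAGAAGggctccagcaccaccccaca
*Grip1*, chr10:119985474-119985629: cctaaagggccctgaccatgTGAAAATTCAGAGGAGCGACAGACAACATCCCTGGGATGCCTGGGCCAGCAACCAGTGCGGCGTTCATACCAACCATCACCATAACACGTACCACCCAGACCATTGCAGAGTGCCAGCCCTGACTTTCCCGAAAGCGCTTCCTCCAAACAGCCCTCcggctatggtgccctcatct
*Sbf1*, chr15:89295952-89296029: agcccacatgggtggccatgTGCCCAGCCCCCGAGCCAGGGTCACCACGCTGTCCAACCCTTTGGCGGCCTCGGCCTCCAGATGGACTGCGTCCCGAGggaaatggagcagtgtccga
*Cask*, chrX:13550947-13550982: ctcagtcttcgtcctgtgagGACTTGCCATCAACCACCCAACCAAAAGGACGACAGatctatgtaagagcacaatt
*Nrcam*, chr12:44545379-44545435: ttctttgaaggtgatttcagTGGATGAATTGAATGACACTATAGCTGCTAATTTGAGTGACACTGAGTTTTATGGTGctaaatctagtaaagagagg
*Akap9*, chr5:3954397-3954450: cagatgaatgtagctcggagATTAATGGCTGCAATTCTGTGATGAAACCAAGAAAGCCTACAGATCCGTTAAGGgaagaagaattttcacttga
The next 4 coding exons were included more in *Qk* cKO.
*Erbb2ip*, chr13:103830188-103830331: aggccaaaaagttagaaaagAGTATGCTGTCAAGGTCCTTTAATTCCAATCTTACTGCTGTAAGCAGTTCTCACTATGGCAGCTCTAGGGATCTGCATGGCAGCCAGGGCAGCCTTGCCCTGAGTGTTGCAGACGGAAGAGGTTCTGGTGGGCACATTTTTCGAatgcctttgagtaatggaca
*Foxm1*, chr6:128371968-128372012: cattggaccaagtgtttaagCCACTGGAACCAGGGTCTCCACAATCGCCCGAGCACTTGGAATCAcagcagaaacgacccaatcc
*Numb*, chr12:83797197-83797343: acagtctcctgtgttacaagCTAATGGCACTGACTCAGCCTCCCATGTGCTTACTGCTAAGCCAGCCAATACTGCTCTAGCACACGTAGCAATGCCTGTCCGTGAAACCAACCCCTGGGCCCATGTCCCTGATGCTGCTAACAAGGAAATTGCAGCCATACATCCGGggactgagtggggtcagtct
*Mbnl2*, chr14:120403336-120403371: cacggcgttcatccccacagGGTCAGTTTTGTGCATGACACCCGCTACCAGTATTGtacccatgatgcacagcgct

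Inclusion was taken as the mean of the tags on both inclusion junctions, divided by that mean plus the tags on the skipping junction. Each sample held 37942046 to 42994832 tags on genes and 1108395 to 1304842 tags on the junctions of these exons, with a median of 96.0 to 114 tags behind an inclusion value of a tested exon in a sample. As a check of the labels, tags on the junction from exon 2 to exon 3 of *Qk* numbered 635 and 565 in the controls and 63 and 68 in *Qk* cKO. Tags on the junction from exon 3 to exon 4 of *Qk*, outside the deleted exon, numbered 574 and 439 in the controls and 898 and 830 in *Qk* cKO. Summed RPKM of 11 neural progenitor markers was 1714 and 1591 in the controls and 1414 and 1351 in *Qk* cKO, and *Fabp7* and *Slc1a3* among them fell. Of 8 hypothalamic and diencephalic markers, 6 fell (*Lhx1*, *Nkx2-2*, *Pomc*, *Six6*, *Sox14* and *Nr5a1*), with a summed RPKM of 4.78 and 10.3 in the controls and 2.49 and 1.81 in *Qk* cKO. All 8, and also *Fabp7*, are among the genes that the paper lists as changed in level in these samples. A fall of these genes is therefore no independent observation. The summed level of the 8 was low and differed between the controls. No marker of intermediate progenitors, neurons, interneurons, endothelium, microglia, blood, meninges or oligodendrocytes passed the edgeR test. For genes with a tested exon, calls of this gene-level test depended on single samples, as given below. In bulk cortex, a change in the share of a cell type and a change of splicing within cells cannot be told apart, nor can fewer cells of a type and less RNA per cell, and the part of these markers in the results below was not tested.

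A total of 2092 events (1982 exons of 1481 genes) had a coverage of at least 20 tags and were tested, and 4331 were not, among them 547 with no junction tag in any sample. Coverage here means the smallest row or column sum when inclusion and skipping tags are tabulated by group. An exon almost always included, or almost always skipped, in both groups can therefore have a low coverage at any depth. One near either limit in the controls can reach the minimum through *Qk* cKO alone. Inclusion changed for 127 of the 2092 by Fisher's exact test (p < 0.01, FDR < 0.1 and a difference of at least 0.1), that is 6.07%, beside 4.85% of all 4600 cassette events tested. With no minimum difference, 231 passed p and FDR, beside 9.28% of all cassette events. Among the 127, inclusion was higher in *Qk* cKO for 58 and lower for 69, beside 2.22% and 2.63% of all cassette events. These events came from 123 exons of 112 genes. Without control replicate 1, 37 in place of 58 were higher and 57 in place of 69 lower. Fisher's exact test on summed tags leaves out the spread between samples of a group. The quasi-likelihood test of edgeR, which estimates that spread, called 52 (2.49%) with 23 higher and 29 lower, beside 1.67% of all cassette events (0.848% higher and 0.826% lower), and each of these 52 was also called by Fisher's exact test. Differences (Δ*I*) are given as *Qk* cKO minus control.

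**Figure D1:**
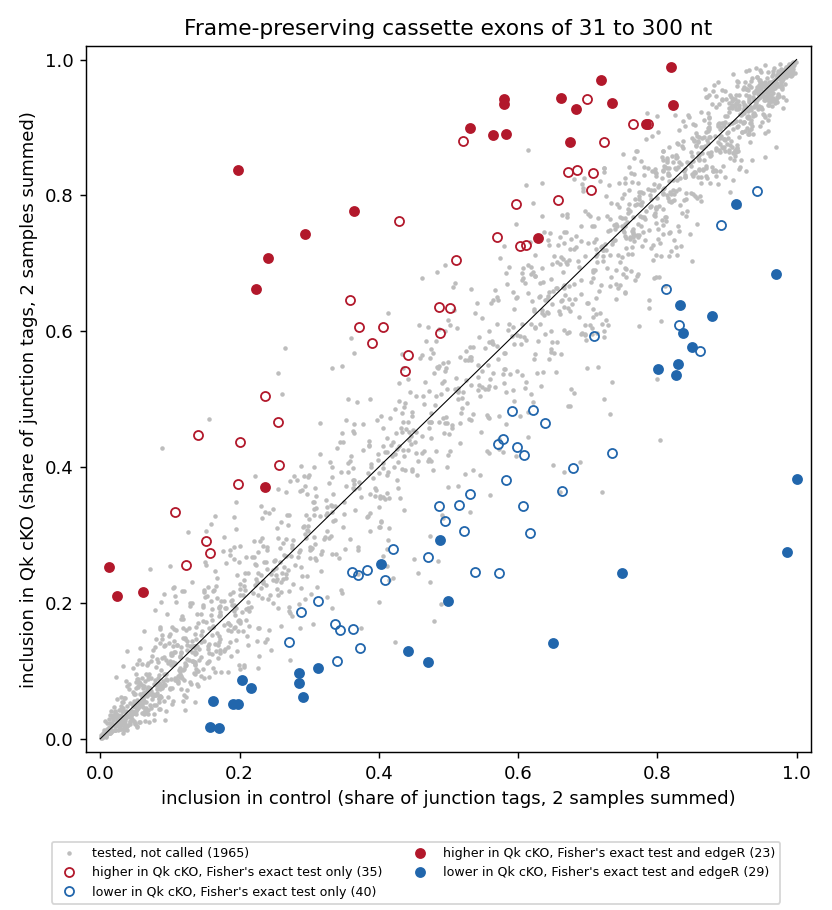
Inclusion of the 2092 tested exons in control (x axis) and *Qk* cKO (y axis), each as the share of junction tags summed over 2 samples. Open circles mark events called by Fisher's exact test alone (35 higher in red, 40 lower in blue), filled circles those also called by edgeR (23 higher, 29 lower), and grey points the 1965 events not called, which lie along the diagonal.

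Most of the exons differed little between the groups. The median absolute difference over all 2092 events was 0.0292 and the median difference was -0.0017. Between the 2 controls the median absolute difference was 0.0362, between the 2 *Qk* cKO samples 0.0342, and between a control and a *Qk* cKO sample 0.0387 to 0.0423. For the 127 called events, the corresponding medians were 0.0536 and 0.0438 within groups and 0.179 to 0.196 between groups, values that the choice of called events itself raises. Both *Qk* cKO samples lay outside the range of both controls for 126 of the 127, with *Zmym5* as the exception, compared with 853 (40.8%) of all tested events of this kind and 38.5% of all cassette events. Calculated from the upstream or the downstream inclusion junction alone, 126 of the 127 kept the direction, and for 111 both junctions gave a difference of at least 0.1. The absolute difference was 0.1 to 0.2 for 69 of the called events and at least 0.3 for 22, with a median of 0.191.

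**Figure D2:**
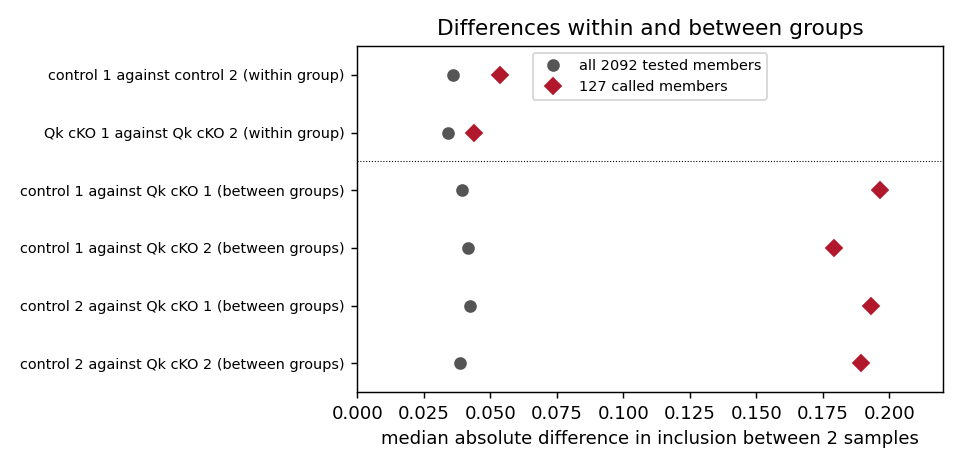
Median absolute difference in inclusion between 2 samples (x axis) for each of the 6 sample pairs (y axis). Grey circles are all 2092 tested events and red diamonds the 127 called events. The grey circles lie between 0.0342 and 0.0423 for every pair, and the diamonds lie at 0.0536 and 0.0438 within groups and from 0.179 to 0.196 between groups.

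Among called exons with a coverage of at least 50, the largest losses of inclusion in *Qk* cKO were in *Etl4*, *Grip1*, *Sbf1*, *Kif16b*, *Mast4*, *Fgfr1op2*, *Fam135a*, *Ankrd26*, *Cask* and *Nrcam*. The choice also required both *Qk* cKO samples to lie outside the range of both controls, here and for the largest gains below. Groups that do not overlap are therefore no result for these exons. Exon numbers are those of a GENCODE transcript that holds the exon. Exon 17 of *Etl4*, which encodes the sickle tail protein, is a 120 nt coding exon at chr2:20801542-20801661 (+ strand). Its inclusion was 0.697 and 0.604 in the controls and 0.182 and 0.1 in *Qk* cKO (Δ*I* = -0.509, FDR = 6.74e-16 by Fisher's exact test and 3.26e-05 by edgeR). Both controls lay far above both *Qk* cKO samples, and the exon passed from the main form to the minor one. *Grip1* encodes a scaffold of PDZ domains that binds AMPA receptor subunits, and its 156 nt exon lies at chr10:119985474-119985629 (+ strand). Inclusion of this exon was 0.846 and 0.658 in the controls and 0.258 and 0.232 in *Qk* cKO (Δ*I* = -0.505, FDR = 1.21e-29 by Fisher's exact test and 2.35e-06 by edgeR). The controls differed from each other by more than the *Qk* cKO samples did.

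*Sbf1* encodes a myotubularin-related pseudophosphatase with a DENN domain. Its 78 nt exon 29 (chr15:89295952-89296029, − strand) was included at 0.472 and 0.470 in the controls and at 0.119 and 0.107 in *Qk* cKO (Δ*I* = -0.358, FDR = 2.05e-31 by Fisher's exact test and 4.84e-07 by edgeR). Replicates of this exon were nearly identical within each group. The 114 nt exon 5 of *Fgfr1op2*, a fusion partner of the FGF receptor gene *Fgfr1*, had an inclusion of 0.415 and 0.489 in the controls and 0.117 and 0.142 in *Qk* cKO (Δ*I* = -0.314, FDR = 7.63e-21 by Fisher's exact test and 2.57e-05 by edgeR). The 78 nt exon 11 of *Fam135a* had an inclusion of 0.537 and 0.469 in the controls and 0.205 and 0.201 in *Qk* cKO (Δ*I* = -0.297, FDR = 0.0028 by Fisher's exact test and 0.046 by edgeR). In both genes all control values exceeded all *Qk* cKO values, as the choice of these exons required.

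*Cask*, a membrane-associated guanylate kinase that scaffolds the synapse, and *Nrcam*, a neuronal cell adhesion molecule of the immunoglobulin superfamily, lost part of exons that the controls mostly included. The 36 nt exon 18 of *Cask* (chrX:13550947-13550982, − strand) was included at 0.799 and 0.856 in the controls and at 0.523 and 0.549 in *Qk* cKO (Δ*I* = -0.291, FDR = 6.43e-17 by Fisher's exact test and 4.81e-05 by edgeR). The 57 nt exon 9 of *Nrcam* (chr12:44545379-44545435, + strand) was included at 0.989 and 0.949 in the controls and at 0.721 and 0.643 in *Qk* cKO (Δ*I* = -0.287, FDR = 6.53e-21 by Fisher's exact test and 4.84e-07 by edgeR). Both exons remained in the larger part of the mRNA in *Qk* cKO.

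Another 3 of the 10 passed Fisher's exact test but not edgeR. *Kif16b* encodes an endosomal kinesin, and its 33 nt exon was included at 0.609 and 0.517 in the controls and at 0.262 and 0.2 in *Qk* cKO (FDR = 0.0308 by Fisher's exact test and 0.334 by edgeR). The 201 nt exon 23 of *Mast4*, a microtubule-associated serine/threonine kinase, was included at 0.733 and 0.737 in the controls and at 0.5 and 0.372 in *Qk* cKO (FDR = 0.00144 by Fisher's exact test and 0.172 by edgeR). A 114 nt exon of *Ankrd26* that is not in the annotation was included at 0.553 and 0.801 in the controls and at 0.361 and 0.369 in *Qk* cKO (FDR = 7.51e-04 by Fisher's exact test and 0.172 by edgeR). It shares its upstream end with an annotated coding exon of 99 nt, which was called with the same skipping tags and is therefore no separate observation. The tags on the upstream inclusion junction are also the same for both forms. The downstream junction of the 114 nt form held 4 and 8.30 tags in the controls and 2.32 and 8.79 in *Qk* cKO. By itself it gave a difference of -0.195 (FDR = 0.282 by Fisher's exact test), so the inclusion above does not separate the forms.

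**Figure D3:**
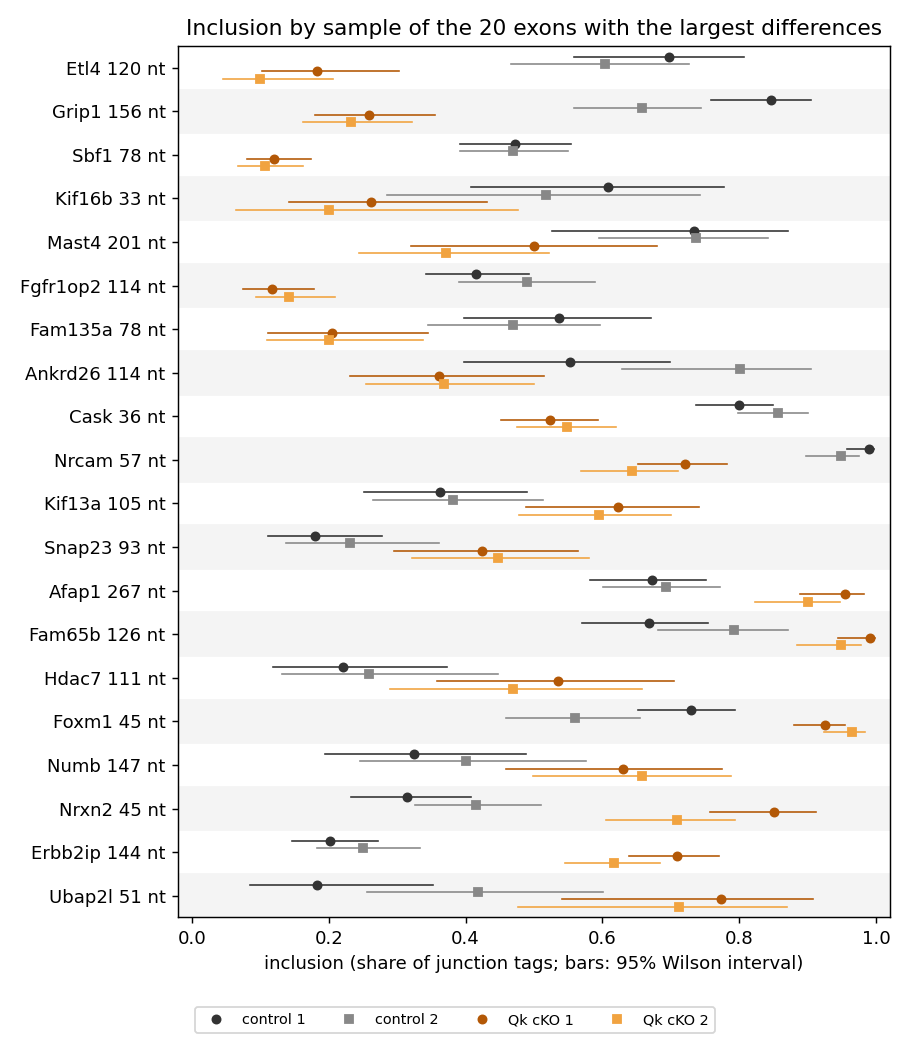
Inclusion (x axis, share of junction tags) in each of the 4 samples for the 10 exons that fell most and the 10 that rose most in *Qk* cKO, with gene and length on the y axis. Grey and black symbols are controls, orange symbols *Qk* cKO, and bars are 95% Wilson intervals, which cover counting error only. In all 20 exons both *Qk* cKO values lie on 1 side of both controls, which was a condition for choosing them.

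The largest gains of inclusion in *Qk* cKO at this coverage were in *Ubap2l*, *Erbb2ip*, *Nrxn2*, *Numb*, *Foxm1*, *Hdac7*, *Fam65b*, *Afap1*, *Snap23* and *Kif13a*. *Erbb2ip* encodes Erbin, a scaffold of leucine-rich repeats and a PDZ domain that binds the ErbB2 receptor. Its 144 nt exon 22 (chr13:103830188-103830331, − strand) was included at 0.201 and 0.25 in the controls and at 0.709 and 0.617 in *Qk* cKO (Δ*I* = 0.439, FDR = 1.62e-29 by Fisher's exact test and 4.04e-07 by edgeR). *Nrxn2* encodes a neurexin, a presynaptic adhesion protein, and its 45 nt exon was included at 0.314 and 0.415 in the controls and at 0.850 and 0.709 in *Qk* cKO (Δ*I* = 0.413, FDR = 5.92e-17 by Fisher's exact test and 8.98e-05 by edgeR). Both exons passed from the minor to the main form by this measure. For *Nrxn2* the inclusion junctions differed in depth, since the second held only 0.324 to 4.44 tags a sample. It alone gave a difference of 0.124 (FDR = 0.0539 by Fisher's exact test), and the first alone gave 0.341. The 51 nt exon 28 of *Ubap2l*, which takes part in stress granule assembly, was included at 0.183 and 0.419 in the controls and at 0.773 and 0.711 in *Qk* cKO (Δ*I* = 0.448, FDR = 2.42e-04 by Fisher's exact test and 0.0817 by edgeR). The controls of *Ubap2l* were the most scattered of these 3 genes, and its coverage was 50 tags.

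*Foxm1* encodes a transcription factor of proliferating cells that drives mitotic genes. Its 45 nt exon 6 (chr6:128371968-128372012, + strand) was included at 0.729 and 0.560 in the controls and at 0.926 and 0.965 in *Qk* cKO (Δ*I* = 0.281, FDR = 1.57e-15 by Fisher's exact test and 4.86e-06 by edgeR). *Fam65b* encodes an inhibitor of RhoA, and its 126 nt exon 13 was included at 0.668 and 0.792 in the controls and at 0.991 and 0.948 in *Qk* cKO (Δ*I* = 0.249, FDR = 5.80e-10 by Fisher's exact test and 2.53e-04 by edgeR). In both genes nearly all mRNA of *Qk* cKO held the exon. The 267 nt exon 2 of *Afap1*, which encodes an actin filament-associated protein, behaved in the same way, with an inclusion of 0.673 and 0.693 in the controls and 0.954 and 0.901 in *Qk* cKO (Δ*I* = 0.245, FDR = 2.55e-08 by Fisher's exact test and 0.00106 by edgeR).

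*Numb* encodes an endocytic adaptor that inhibits Notch signalling and is segregated unequally in dividing progenitors, and its 147 nt exon 9 (chr12:83797197-83797343, − strand) codes for an insert in the proline-rich region. This exon was included at 0.324 and 0.400 in the controls and at 0.631 and 0.658 in *Qk* cKO (Δ*I* = 0.287, FDR = 0.00582 by Fisher's exact test and 0.259 by edgeR). The exon was not called by edgeR, and the call of Fisher's exact test was lost without control replicate 1 (Δ*I* = 0.245). Nor did edgeR call the exons of *Hdac7*, a class IIa histone deacetylase, of the SNARE gene *Snap23* and of the kinesin gene *Kif13a*. In *Hdac7*, inclusion was 0.221 and 0.259 in the controls and 0.536 and 0.469 in *Qk* cKO (edgeR FDR = 0.339). In *Snap23* it was 0.180 and 0.231 against 0.424 and 0.448 (edgeR FDR = 0.130). In *Kif13a* it was 0.362 and 0.382 against 0.623 and 0.594 (edgeR FDR = 0.2).

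Genes of the actin cytoskeleton and cell adhesion had 98 tested events, of which 14 were called (14.3%, compared with 6.07% of all tested events of this length class). Inclusion rose in 9 and fell in 5, in 11 genes, and edgeR called 9, of which 4 were events of *Erbb2ip*. The median difference over the 98 events was -0.000716, beside -0.0017 over all 2092, and over the 8 gene lists examined such medians ran from -0.00807 to 0.00148. Over all 2092 events edgeR called 2.49%, the share that belongs beside the edgeR counts of each list. These lists were chosen with earlier results of these data known, and the paper reports cytoskeletal terms among the differently spliced genes of these samples. A raised share in a list is therefore no independent observation. The 45 nt exon 10 of *Sorbs2*, an adaptor of focal adhesions and stress fibres, was included at 0.811 and 0.848 in the controls and at 0.527 and 0.578 in *Qk* cKO (FDR = 2.93e-17 by Fisher's exact test and 3.26e-05 by edgeR). The 111 nt exon 96 of *Dst*, a giant linker of cytoskeletal filaments, was included at 0.304 and 0.268 in the controls and at 0.0688 and 0.0965 in *Qk* cKO (FDR = 5.16e-07 by Fisher's exact test and 0.00237 by edgeR). Neither exon had overlapping groups, as was so for 126 of the 127 called events. In *Dst* the exon was a minor form already in the controls.

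Another 3 exons of this list were chosen after their values were seen. *Evl*, an Ena/VASP protein that promotes actin filament elongation, had the smallest edgeR FDR of all 2092 events, with inclusion of its 63 nt exon (chr12:108683348-108683410, + strand) at 0.231 and 0.161 in the controls and 0.0492 and 0.0535 in *Qk* cKO (Δ*I* = -0.147, edgeR FDR = 5.45e-09). The 81 nt exon of *Myo5a*, an unconventional myosin that carries organelles along actin, was included at 0.172 and 0.170 in the controls and at 0.0221 and 0.00908 in *Qk* cKO (Δ*I* = -0.155, edgeR FDR = 9.17e-07). Both exons were rare in control cortex and rarer still in *Qk* cKO, and their differences in inclusion were small although the test values were strong. The 273 nt exon 25 of *Fn1*, the fibronectin gene, was included at 0.642 and 0.735 in the controls and at 0.832 and 0.842 in *Qk* cKO (FDR = 0.00184 by Fisher's exact test and 0.130 by edgeR).

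Axon guidance and synaptic genes had 10 called events among 90 tested (11.1%, beside 6.07% of all 2092), 4 higher and 6 lower, of which edgeR called 6. Beside *Grip1*, *Cask*, *Nrcam* and *Nrxn2*, the rule named *Lphn2*, *Ptprk* and *Aplp2*. *Lphn2* encodes latrophilin 2, an adhesion G protein-coupled receptor, and its 129 nt exon 22 was included at 0.7 and 0.644 in the controls and at 0.904 and 0.855 in *Qk* cKO (Δ*I* = 0.204, FDR = 3.41e-12 by Fisher's exact test and 2.14e-04 by edgeR). The 36 nt exon 13 of *Aplp2*, a relative of the amyloid precursor protein, had the deepest coverage of the named exons with 1591 tags, and its inclusion was 0.386 and 0.426 in the controls and 0.255 and 0.260 in *Qk* cKO (Δ*I* = -0.145, FDR = 2.03e-12 by Fisher's exact test and 0.00463 by edgeR). The groups were apart in both genes, as in nearly all called events. In *Ptprk*, a receptor tyrosine phosphatase, the 36 nt exon was included at 0.511 and 0.559 in the controls and at 0.267 and 0.455 in *Qk* cKO, where the *Qk* cKO samples differed from each other by more than the nearest control and *Qk* cKO samples did (FDR = 0.095 by Fisher's exact test and 0.616 by edgeR).

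For genes of microtubules, the centrosome and motors, 5 of 74 tested events were called (6.76%, beside 6.07% of all 2092), 2 higher and 3 lower, and edgeR called 2. Those were *Akap9* and *Sept6*. *Akap9* encodes a scaffold at the centrosome and Golgi apparatus, and its 54 nt exon 4 (chr5:3954397-3954450, + strand) was included at 0.166 and 0.146 in the controls and at 0.0202 and 0.0147 in *Qk* cKO (Δ*I* = -0.140, FDR = 1.24e-15 by Fisher's exact test and 4.04e-07 by edgeR). Almost no mRNA of *Qk* cKO held this exon. The 45 nt exon 10 of the septin gene *Sept6* was included at 0.506 and 0.685 in the controls and at 0.920 and 0.972 in *Qk* cKO (FDR = 3.76e-07 by Fisher's exact test and 0.00375 by edgeR). For *Cep110*, which encodes a centriolar protein, the called 144 nt exon lies in an untranslated region, and its inclusion was 0.429 and 0.667 in the controls and 0.282 and 0.216 in *Qk* cKO with a coverage of 20 tags and at most 1 tag on the upstream inclusion junction per sample (edgeR FDR = 0.648).

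Among regulators of small GTPases, 5 of 52 tested events were called (9.62%, beside 6.07% of all 2092), 2 higher and 3 lower, and edgeR called 3, of which *Sbf1* is given above. The other two were in Rab exchange factor genes. The 72 nt exon 2 of *Dennd5a* was included at 0.801 and 0.800 in the controls and at 0.517 and 0.569 in *Qk* cKO (FDR = 1.26e-08 by Fisher's exact test and 0.0016 by edgeR). The 147 nt exon 20 of *Dennd4c* moved the other way, from 0.643 and 0.472 in the controls to 0.870 and 0.935 in *Qk* cKO (FDR = 0.00116 by Fisher's exact test and 0.0494 by edgeR). For the guanine nucleotide exchange factor gene *Arhgef1*, inclusion of the 168 nt exon was 0.601 and 0.433 in the controls and 0.289 and 0.396 in *Qk* cKO, and 1 control lay close to 1 *Qk* cKO sample (edgeR FDR = 0.648).

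Membrane traffic genes had 5 called events among 65 (7.69%, beside 6.07% of all 2092), 4 higher and 1 lower, and edgeR called 2. The 150 nt exon 13 of *Picalm*, a clathrin assembly protein, was included at 0.783 and 0.786 in the controls and at 0.911 and 0.899 in *Qk* cKO (Δ*I* = 0.120, FDR = 3.18e-08 by Fisher's exact test and 0.00166 by edgeR). The 60 nt exon 29 of *Sec16a*, which organizes exit sites of the endoplasmic reticulum, was included at 0.297 and 0.327 in the controls and at 0.0775 and 0.135 in *Qk* cKO (Δ*I* = -0.210, FDR = 2.45e-05 by Fisher's exact test and 0.00311 by edgeR). The difference in *Picalm* was small but its replicates were close together. In the epsin gene *Epn2*, inclusion was 0.130 and 0.193 in the controls and 0.314 and 0.223 in *Qk* cKO, and edgeR did not call it (FDR = 0.409).

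Genes for RNA binding proteins had 6 called events among 111 (5.41%, beside 6.07% of all 2092), 4 higher and 2 lower, and edgeR called 3. *Mbnl2* encodes a muscleblind splicing regulator, and its 36 nt exon 8 (chr14:120403336-120403371, + strand) showed the largest gain of all called events. Its inclusion was 0.101 and 0.333 in the controls and 0.778 and 0.902 in *Qk* cKO (Δ*I* = 0.640, FDR = 3.63e-06 by Fisher's exact test and 0.00179 by edgeR), with a coverage of 41.9 tags. Without control replicate 1 the coverage fell below 20, so that the exon was not tested, and the difference was 0.504. The exon passed from the minor to the predominant form. The 33 nt exon 5 of *Eif4g3*, a translation initiation scaffold, was called in 2 events that differ in a flanking exon, and both showed lower inclusion in *Qk* cKO. In the event with the larger difference, inclusion was 0.355 and 0.324 in the controls and 0.188 and 0.155 in *Qk* cKO (coverage 114 tags, FDR = 0.0162 by Fisher's exact test and 0.330 by edgeR). In the other, with a coverage of 189 tags, it was 0.225 and 0.209 in the controls and 0.0737 and 0.0771 in *Qk* cKO (edgeR FDR = 0.00407). In *Cstf2*, a subunit of the polyadenylation machinery, the 87 nt exon had an inclusion of 0.226 and 0.287 in the controls and 0.362 and 0.558 in *Qk* cKO (Δ*I* = 0.210, FDR = 0.00263 by Fisher's exact test and 0.463 by edgeR), and without *Qk* cKO replicate 2 the difference was 0.107 with no call (FDR = 0.190 by Fisher's exact test).

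Chromatin and transcription genes had 6 called events among 97 (6.19%, beside 6.07% of all 2092), 3 in each direction, and edgeR called 2. Beside *Foxm1* this was *Bptf*, a subunit of the NURF remodelling complex, whose 189 nt exon 5 was included at 0.875 and 0.834 in the controls and at 0.584 and 0.571 in *Qk* cKO (coverage 71.6 tags, FDR = 9.26e-07 by Fisher's exact test and 0.0206 by edgeR). A second event of the same exon with another flanking exon had a larger coverage of 174 tags and was not called by edgeR. It gave 0.493 and 0.653 in the controls and 0.381 and 0.382 in *Qk* cKO (FDR = 4.73e-05 by Fisher's exact test and 0.266 by edgeR), so the level of inclusion depended on the isoforms compared while the direction did not. In *Mll3*, a histone H3 lysine methyltransferase, inclusion of the 105 nt exon was 0.821 and 0.804 in the controls and 0.658 and 0.664 in *Qk* cKO (FDR = 0.0275 by Fisher's exact test and 0.515 by edgeR). In *Auts2*, a gene of neuronal development, the 45 nt exon was included at 0.7 and 0.708 in the controls and at 0.819 and 0.799 in *Qk* cKO (FDR = 0.0287 by Fisher's exact test and 0.352 by edgeR).

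Genes of kinases, phosphatases and signalling scaffolds had 8 called events among 65 (12.3%, beside 6.07% of all 2092), 6 higher and 2 lower, and the 4 called by edgeR were all higher. The 45 nt exon 3 of *Fryl*, a large furry-related protein, was included at 0.230 and 0.25 in the controls and at 0.713 and 0.705 in *Qk* cKO with a coverage of 34.6 tags (FDR = 8.02e-04 by Fisher's exact test and 0.0817 by edgeR). The 162 nt exon 16 of *Map4k4*, a kinase upstream of JNK, was included at 0.756 and 0.716 in the controls and at 0.937 and 0.934 in *Qk* cKO (Δ*I* = 0.2, edgeR FDR = 3.87e-08). In the other called event of this exon the difference was smaller, with 0.820 and 0.824 in the controls and 0.925 and 0.942 in *Qk* cKO (Δ*I* = 0.111, edgeR FDR = 0.0184). *Map4k4* was chosen after its values were seen, and its exons account for 3 of the 4 edgeR calls of this list, since exon 16 was called in 2 events and the 192 nt exon 22 in another. The coverage was 20 tags for the exons of *Itpr1*, a calcium channel of the endoplasmic reticulum (0.616 and 0.770 in the controls, 0.924 and 0.962 in *Qk* cKO, edgeR FDR = 0.146), and *Brsk2*, a kinase of neuronal polarity (0.538 and 0.5 in the controls, 1 and 0.778 in *Qk* cKO, edgeR FDR = 0.343).

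The largest losses of all called events were in exons of *Tnc* and *Abcc9*. Their coverage was below the 50 required for the exons with the largest differences above, and both were chosen after their values were seen. *Tnc* encodes tenascin C, a glycoprotein of the extracellular matrix around cortical progenitors, and its 273 nt exon 14 (chr4:63984460-63984732, − strand) was included at 0.987 and 0.984 in the controls and at 0.207 and 0.399 in *Qk* cKO (Δ*I* = -0.710, FDR = 5.41e-20 by Fisher's exact test and 3.08e-08 by edgeR). Skipping was seen on 1 tag in each control and on 23 and 10 tags in *Qk* cKO. *Abcc9* encodes the SUR2 subunit of ATP-sensitive potassium channels, and its 39 nt exon 18 (chr6:142648027-142648065, − strand) had no skipping tag in either control and 20 and 15 in *Qk* cKO, which gave inclusions of 1 and 1 against 0.286 and 0.475 (Δ*I* = -0.617, FDR = 4.98e-10 by Fisher's exact test and 5.17e-05 by edgeR). The coverage of these exons, 34.6 tags for *Tnc* and 35.5 for *Abcc9*, was the number of their skipping tags over all samples. They passed the minimum of 20 only through skipping in *Qk* cKO, so their place as the largest losses depends on that choice. Both exons went from almost constant inclusion to predominant skipping, and their sequences are as follows. The *Abcc9* exon is in capitals as above. The *Tnc* exon is given alone, in lower case, with an ACTAAT within it in capitals.
*Tnc*, chr4:63984460-63984732: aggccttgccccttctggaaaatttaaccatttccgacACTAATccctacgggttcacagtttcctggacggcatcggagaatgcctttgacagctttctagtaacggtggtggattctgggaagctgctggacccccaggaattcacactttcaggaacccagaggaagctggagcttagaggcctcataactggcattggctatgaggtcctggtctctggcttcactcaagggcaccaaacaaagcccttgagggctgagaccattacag
*Abcc9*, chr6:142648027-142648065: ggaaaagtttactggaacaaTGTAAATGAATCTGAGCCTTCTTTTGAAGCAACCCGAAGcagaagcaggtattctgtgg
Across all called events, 15 went from an inclusion of at least 0.5 in both controls to below 0.5 in both *Qk* cKO samples, and 12 made the reverse change.

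Several genes held more than 1 called exon. There were 9 genes with at least 2 called exons, namely *Ankrd26*, *Eml4*, *Erbb2ip*, *Lrp8*, *Map4k4*, *Prc1*, *Sh3pxd2a*, *Slmap* and *Top3b*, and only in *Slmap* did the directions differ. *Slmap* encodes a tail-anchored membrane protein of the sarcolemma and the centrosome. Its 123 nt exon 16 rose from 0.823 and 0.816 in the controls to 1 and 0.978 in *Qk* cKO (edgeR FDR = 6.69e-04), while the 90 nt exon 22 fell from 0.893 and 0.863 to 0.552 and 0.697 (edgeR FDR = 0.0174) and the 63 nt exon 12 fell from 0.586 and 0.474 to 0.381 and 0.260 (FDR = 0.0452 by Fisher's exact test and 0.680 by edgeR). In *Erbb2ip*, an exon downstream of exon 22 was also called, in forms of 129 and 207 nt that share their downstream end. The 129 nt form was included at 0.514 and 0.633 in the controls and at 0.912 and 0.867 in *Qk* cKO (edgeR FDR = 3.26e-05). This value rests on the downstream inclusion junction, because the upstream inclusion junction held at most 2.33 tags per sample and gave a difference of 0.0151 by itself. In *Prc1*, *Ankrd26* and *Top3b* the called exons overlap and share tags, so they are not independent.

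Called exons were mostly intermediate in the controls. Of 594 events with a control inclusion from 0.3 to 0.7, 68 were called (11.4%), compared with 3 of 308 below 0.1 (0.974%) and 5 of 336 above 0.9 (1.49%). The median coverage of these 3 groups was 134, 43.3 and 34.5 tags, and their differences in depth and in the room for a change of 0.1 move with these shares. By length, 42 of 490 events of 31 to 60 nt (8.57%), 45 of 957 of 61 to 120 nt (4.70%), 26 of 446 of 121 to 180 nt (5.83%) and 14 of 199 of 181 to 300 nt (7.04%) were called. Among exons of 61 to 120 nt, 14 rose and 31 fell, whereas among those of 121 to 180 nt, 19 rose and 7 fell. The difference between the length groups was not tested, and it is given as counts because it was seen in these data first. The median length was 102 nt for exons that rose, 78 nt for exons that fell and 93 nt for all tested exons.

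**Figure D4:**
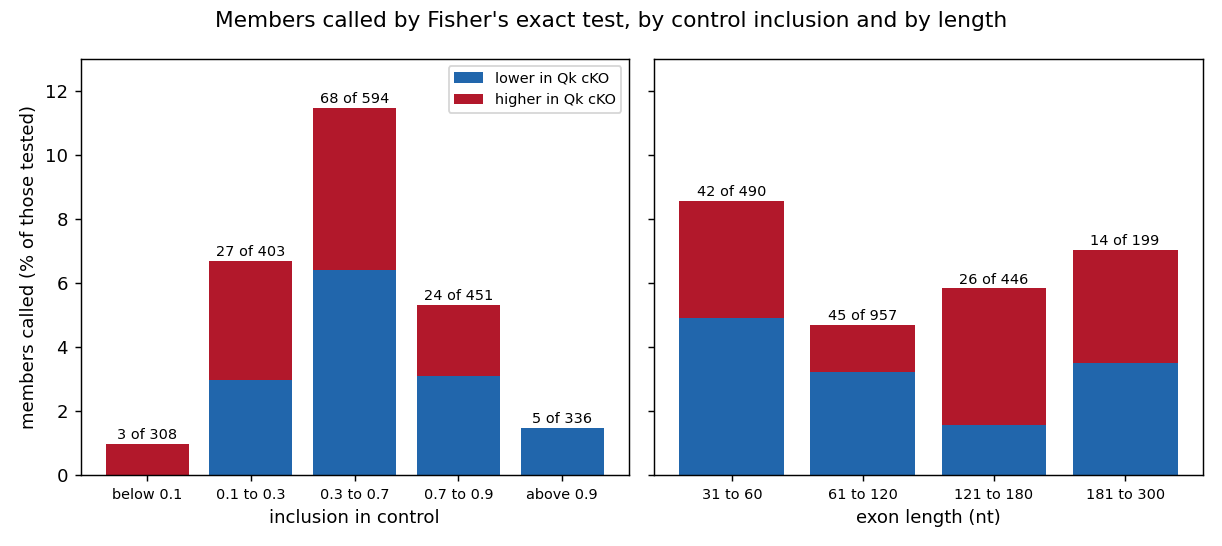
Share of tested events called by Fisher's exact test (y axis, percent) by inclusion in control (left) and by exon length in nt (right), with events lower in *Qk* cKO in blue and higher in red. Numbers above the bars are events called of events tested. The share is highest, 11.4%, at a control inclusion of 0.3 to 0.7, and exons of 121 to 180 nt show more red (19 events) than blue (7 events).

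Of the 123 called exons, those coding over their whole length were 45 of 56 that rose (80.4%) and 54 of 67 that fell (80.6%), compared with 1412 of 1982 tested exons (71.2%). By event, 103 of 1487 coding events were called (6.93%), 10 of 202 in untranslated regions (4.95%), 9 of 222 partly coding (4.05%) and 2 of 79 non-coding (2.53%). Median coverage was 79.0 tags for coding events and 50.2 for those in untranslated regions. Among coding events, the called share was 6.39% of 657 in phase 0, 7.90% of 557 in phase 1 and 6.23% of 273 in phase 2. Phase here is the number of bases of a codon that lie before the exon.

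The Qki motif was then counted within the exons. ACTAAC and ACTAAT, which differ at the last base only, were searched on the transcript strand of the 1894 tested exons whose sequence could be taken from an annotated transcript. At least 1 copy was found in 50 of these exons (2.64%). It was found in 7 of 55 exons that rose in *Qk* cKO (12.7%), 3 of 66 that fell (4.55%) and 40 of 1773 not called (2.26%). Per kilobase, this was 1.32 copies in exons that rose, 0.495 in those that fell and 0.222 in those not called. On the opposite strand, 26 tested exons held the motif, none of them among the 121 called exons. Of 50 exons called by edgeR, 6 held the motif (12.0%). These counts are small, and 2 of the 7 exons that rose are the overlapping forms of *Erbb2ip* that share 1 site. Introns were not searched.

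The called exons with the motif are shown in lower case with the motif in capitals, for *Lphn2*, *Map4k4*, *Afap1*, *Erbb2ip* (129 nt form) and *Brsk2*, which rose, and *Ptprm*, which fell.
*Lphn2*, chr3:148821280-148821408: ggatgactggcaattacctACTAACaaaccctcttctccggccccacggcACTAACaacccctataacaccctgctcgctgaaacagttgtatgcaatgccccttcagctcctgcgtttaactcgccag
*Map4k4*, chr1:40001430-40001591: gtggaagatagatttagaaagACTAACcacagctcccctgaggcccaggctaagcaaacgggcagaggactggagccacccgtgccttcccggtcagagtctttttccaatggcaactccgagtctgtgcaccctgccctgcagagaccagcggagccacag
*Afap1*, chr5:35987055-35987321: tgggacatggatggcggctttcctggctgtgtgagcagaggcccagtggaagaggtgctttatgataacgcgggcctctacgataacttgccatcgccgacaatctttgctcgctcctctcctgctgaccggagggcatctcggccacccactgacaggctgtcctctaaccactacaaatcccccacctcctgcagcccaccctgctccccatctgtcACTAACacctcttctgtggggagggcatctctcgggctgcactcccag
*Erbb2ip*, chr13:103824720-103824848: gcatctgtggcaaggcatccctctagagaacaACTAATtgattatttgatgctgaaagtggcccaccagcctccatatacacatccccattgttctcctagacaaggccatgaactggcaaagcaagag
*Brsk2*, chr7:142000842-142000889: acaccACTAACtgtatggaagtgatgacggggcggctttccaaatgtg
*Ptprm*, chr17:66912353-66912427: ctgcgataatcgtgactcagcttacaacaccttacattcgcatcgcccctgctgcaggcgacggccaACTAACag
The exon of *Lphn2* holds 2 copies. In *Ptprm*, a receptor tyrosine phosphatase, the motif ends 2 bases before the end of the exon, and inclusion was 0.686 and 0.536 in the controls and 0.345 and 0.333 in *Qk* cKO (FDR = 0.095 by Fisher's exact test and 0.391 by edgeR). The remaining exons with the motif were those of *Prrc2c*, which rose, and of *Eml4* and *Tnc*, which fell. The *Tnc* motif is the ACTAAT printed above, which starts at base 39 of the exon.

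**Figure D5:**
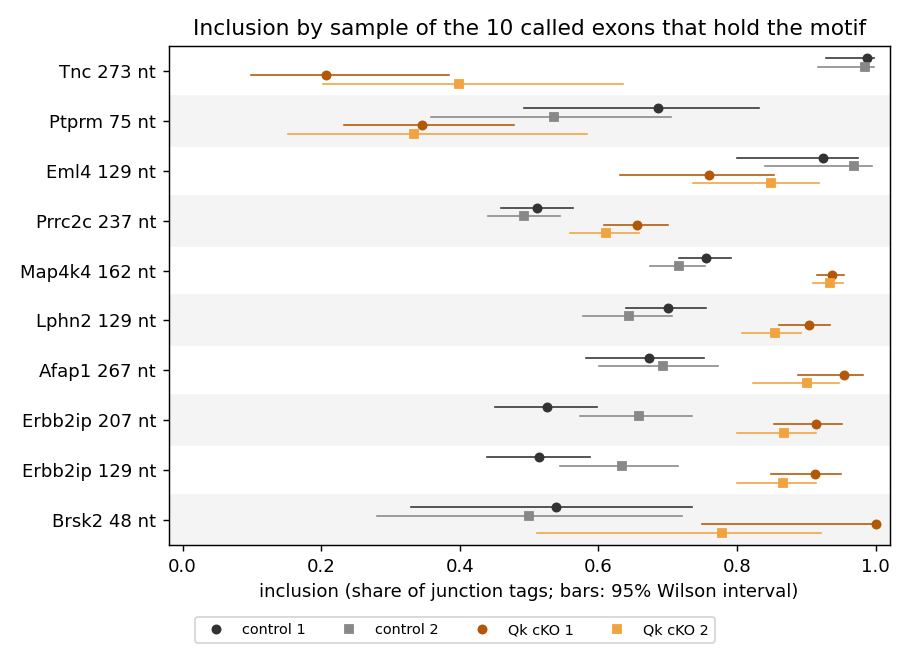
Inclusion (x axis, share of junction tags) in each of the 4 samples for the 10 called exons that hold ACTAAC or ACTAAT, with gene and length on the y axis. Grey and black symbols are controls, orange symbols *Qk* cKO, and bars are 95% Wilson intervals. For *Map4k4* the event with the larger coverage is drawn. The lower 7 exons have both *Qk* cKO values above both controls, and the upper 3 have them below.

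The mRNA levels of the genes changed in few cases. Of the 112 genes with a called exon, 4 (3.57%) changed in level by edgeR at the same thresholds, beside 16 of the 1481 genes with a tested exon (1.08%) and 0.584% of all 18834 genes tested. These were *Ddr1*, *Fkbp14*, *Snap23* and *Tnc*, all lower in *Qk* cKO. *Snap23* had an RPKM of 12.0 and 11.1 in the controls and 7.26 and 8.81 in *Qk* cKO (log2 fold change -0.52 ± 0.12 SE, edgeR FDR = 0.0785). *Tnc* had an RPKM of 16.0 and 17.5 in the controls and 12.5 and 13.2 in *Qk* cKO (log2 fold change -0.37 ± 0.06 SE, edgeR FDR = 0.00656). The control values were above the *Qk* cKO values in both genes. The median absolute log2 fold change was 0.08 for genes with a called exon and 0.07 for all genes with a tested exon. These calls of gene level depended on single samples. Of the genes with a tested exon, 0 were called without control replicate 1 or without control replicate 2, 40 without *Qk* cKO replicate 1 and 6 without *Qk* cKO replicate 2, and 1 was called after the filterByExpr filter of edgeR. Mean RPKM of the 112 genes ran from 2.34 to 199.

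Of the cassette exons of 31 to 300 nt that shift the reading frame, 56 of 2032 tested were called by Fisher's exact test (2.76%) and 5 by edgeR (0.246%). The corresponding values of the frame-preserving exons were 127 of 2092 (6.07%) and 52 of 2092 (2.49%). Median coverage was 49.0 tags for the frame-shifting and 69.5 tags for the frame-preserving exons. With a coverage of at least 50, 31 of 1002 frame-shifting exons (3.09%) and 107 of 1302 frame-preserving exons (8.22%) were called by Fisher's exact test, and 0.499% and 3.23% by edgeR. Exons of 30 nt or less had 33 calls by Fisher's exact test among 332 (9.94%), and exons of more than 300 nt had 7 among 144 (4.86%). The test of edgeR called 17 (5.12%) and 3 (2.08%) of them. With a coverage of at least 50, edgeR called 5.39% of the exons of 30 nt or less and 4% of those above 300 nt. A share called by edgeR at the level of the frame-preserving exons was therefore not particular to them. No test of the difference between these classes was made, because exons of a gene and events of an exon share tags.

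At the edges of the length rule, called exons lay on both sides of the lower limit and on neither side of the upper one. Exons of 30 nt, just outside, had 3 calls among 28 tested, the largest in *Mdm1* with an inclusion of 0.236 and 0.225 in the controls and 0.522 and 0.400 in *Qk* cKO. Exons of 33 nt, just inside, had 4 calls among 52, with *Kif16b* as the largest. At the upper end, the only tested exon of 300 nt, in *Ormdl2*, and the 3 tested exons of 303 nt, among them one in *Rapgef6*, were not called.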

How the data were processed

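Poly-A selected mRNA of the E14.5 cortex was sequenced as paired ends in 2 control and 2 *Qk* cKO samples. OLego served the authors as spliced aligner (build mm10), and Quantas as the counting tool. The values deposited are estimated counts of tags per gene, isoform and junction, which need not be whole, and RPKM as calculated by the authors. Tags were rounded before testing. Exons were placed on GENCODE M21 from the offsets in the event names, which succeeded for 2077 of 2092 tested events. Fisher's exact test (two-sided, scipy 1.17.1) was run on isoform tags summed over the samples of a group, at p < 0.01, FDR < 0.1 (Benjamini-Hochberg over all 4600 cassette events tested), a coverage of at least 20 and a difference in inclusion of at least 0.1. In R 4.3.3, edgeR's quasi-likelihood test (version 4.0.16) was fitted to the interaction of isoform and genotype on junction tags, and to gene tags after TMM normalization over genes with at least 1 tag. DESeq2 1.42.0 was an alternative. The tests were checked on simulated data. Named exons were the 10 with the largest difference in each direction at a coverage of at least 50 with samples of the groups apart, with 1 event per gene, up to 3 further called exons in each of 8 gene lists, for which no coverage beyond 20 was asked, and the exons at the edges of the length rule. Members, gene lists and markers were chosen with earlier results of these data known. The labels and the results section give 2 replicates per group, the methods 3 for the RNA. The p-values of edgeR cover the spread between the samples used here only, and those of Fisher's exact test do not cover it. The markers *Map2*, *Hbb-bs* and *Hbb-bt* were not found in the gene table under these symbols.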

Additional observations from a re-analysis of the deposited data

How the results depend on the processing

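Of the exons described, 44 were named by rule, and none changed direction with either inclusion junction alone. Leaving out 1 sample could not reverse a direction, because both *Qk* cKO samples lay on 1 side of both controls for each of the 44. With each sample left out in turn, Fisher's exact test still called 22 of the 44 every time and 12 of the 20 with the largest differences. The other 8 of these 20 (*Ankrd26*, *Fam135a*, *Hdac7*, *Kif13a*, *Kif16b*, *Mast4*, *Numb* and *Snap23*) lost the call without at least 1 sample, as did *Arhgef1*, *Auts2*, *Brsk2*, *Cep110*, *Cstf2*, *Dennd4c*, *Eif4g3*, *Epn2*, *Fryl*, *Itpr1*, *Mbnl2*, *Mll3*, *Ptprk* and *Sept6* of the gene lists, and with either inclusion junction alone 30 of the 44 stayed called. The count of 127 called events became 231 with no minimum difference (105 higher and 126 lower in *Qk* cKO) and 58 with a difference of at least 0.2 (26 higher and 32 lower). With 1 sample left out it ranged from 94 to 127, with 37 to 61 higher and 49 to 68 lower, and the 37 came without control replicate 1. Of those called, 73 of 94 without control replicate 1, 87 of 127 without control replicate 2, 80 of 98 without *Qk* cKO replicate 1 and 89 of 121 without *Qk* cKO replicate 2 were among the 127 called with all samples. A coverage of at least 10 (127) or 50 (109), junction tags alone (143), the mean of the replicates' inclusion (127), FDR over events of all 6 types (121) and 1 event per exon (117) stayed within 1.5 times. The 52 calls of edgeR became 27 with DESeq2 (13 higher and 14 lower), all 27 among the 52, and ranged from 40 to 56 with 1 sample left out. The cause of these shifts was not tested.

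Deviations of same-numbered samples correlated at 0.0348 over 2092 events, which gave no sign of pairing by replicate number. With 2 samples per group, this value cannot exclude that same-numbered samples shared a litter or batch. The main tests used no pairing. With replicate blocks, 120 events were called by the Cochran-Mantel-Haenszel test and 50 by edgeR. The 16 genes with a tested exon and a changed level became 23 with a replicate block (14 higher and 9 lower), 1 with filterByExpr (0 higher and 1 lower), and ranged from 0 to 40 with 1 sample left out (0 to 30 higher, 0 to 10 lower). The 4 genes that also held a called exon became 0 with filterByExpr. Where a sample was left out, the lone sample of a group was assumed to vary like the other group. The motif share among called exons was 8.26% by Fisher's exact test and 12.0% by edgeR. Intron windows around the exons were not run, because no genome sequence was used here. Events with a coverage below 20, 4331 of 6423, were not tested. By the definition of coverage, they had few tags in a group or a form that was rare in both groups. How many were of each kind was not counted.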

Other observations

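Exons outside the named lists add further cell biological roles, and they were chosen after their values were seen. The 54 nt exon of *Wdfy3*, an adaptor of selective autophagy, was included at 0.352 and 0.222 in the controls and at 0.0450 and 0.0794 in *Qk* cKO (edgeR FDR = 5.10e-04). The 57 nt exon 11 of *Clstn1*, a calsyntenin of neuronal membranes, was included at 0.915 and 0.910 in the controls and at 0.770 and 0.806 in *Qk* cKO (edgeR FDR = 2.14e-04). In these genes, both *Qk* cKO values lay below both controls, and nearly all called events had their groups apart.

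*Prc1*, which bundles the microtubules of the central spindle in dividing cells, had an exon with alternative starts that gives forms of 39 and 42 nt. The 42 nt form was included at 0.232 and 0.359 in the controls and at 0.0389 and 0.161 in *Qk* cKO (edgeR FDR = 0.0224), and the 39 nt form at 0.15 and 0.247 against 0.0239 and 0.0830 (edgeR FDR = 0.0203). In *Prom1*, which encodes the progenitor surface protein prominin 1, the 69 nt exon was included at 0.203 and 0.190 in the controls and at 0.290 and 0.459 in *Qk* cKO (FDR = 2.27e-04 by Fisher's exact test and 0.288 by edgeR). The *Qk* cKO samples of *Prom1* differed from each other by more than the nearest control and *Qk* cKO samples did.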
